A study of Mus musculus with 10 samples.

Results

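A set of 9 genes of the Hedgehog pathway was followed in epithelial cells sorted from mouse pancreatic tumours. They were the ligand genes Shh, Ihh and Dhh, the receptor gene Ptch1, the decoy receptor gene Hhip, the signal transducer gene Smo, and the transcription factor genes Gli1, Gli2 and Gli3. These 9 genes were chosen by name from the 51707 genes to which transcripts could be assigned, and the estimated counts and TPM of all their transcripts were summed in each of 10 libraries. TPM is a transcript level corrected for length and library depth, so it allows genes to be compared. CPM, a count scaled to library size (counts per 1000000 counts), was used to compare libraries. Of the 9 members, 6 passed the filter on low counts and were tested (Shh, Ihh, Dhh, Ptch1, Smo and Gli3), among 17495 genes tested in all. Gli1, Gli2 and Hhip lay below the filter.

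In the Egfr KO PSC group, 5 libraries came from tumours grown in the pancreas from T6-LOH organoids of pancreatic ductal adenocarcinoma (PDAC), transplanted with stellate cells (PSCs) of the line PSC4 EGFR KO B4. This name was read as a single Egfr knockout clone, B4. In the Egfr WT PSC group, 5 libraries came from tumours of the same organoids with the control line PSC4 ROSA (egfr). The organoids come from a genetically engineered mouse model of PDAC. The hosts are given as NSG mice, which lack mature lymphocytes but keep fibroblasts, endothelial cells and macrophages, whereas the strain label of every library reads C57BL/6J. The labels give no age for the animals. Egfr was knocked out in the injected stellate cells and not in the sorted cells. Because 1 clone stands for the knockout, loss of Egfr and other properties of that clone cannot be told apart. In the sorted cells Egfr itself was at 63.4 ± 9.12 CPM with Egfr KO PSCs and 58.5 ± 16.1 CPM with Egfr WT PSCs (SD, n = 5 each; edgeR adjusted p = 0.891), which does not check the knockout.

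Hedgehog ligands are secreted proteins that bind Patched-1, the product of Ptch1. Binding lifts the block that Patched-1 places on Smoothened, the product of Smo, and GLI transcription factors then switch on target genes, among them Gli1, Ptch1 and Hhip. In the pancreas, ligands made by carcinoma cells are best known for acting on neighbouring fibroblasts and stellate cells, where Gli1 and Ptch1 serve as readouts of the signal.

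The libraries held between 39534055 and 53816086 estimated counts in genes. The epithelial surface gene Epcam, a marker of epithelial cells, lay between 163 and 253 TPM with Egfr KO PSCs and between 116 and 292 TPM with Egfr WT PSCs. Of the 8 epithelial markers, 6 were higher and 2 lower with Egfr KO PSCs (median log2 fold change 0.09). A single marker, Krt7, had an unadjusted edgeR p under 0.05, where 8.15% of all genes tested had one, and none was called. Markers of other cells were present. The 5 islet markers summed to 106 to 668 TPM with Egfr KO PSCs and 61.95 to 677 TPM with Egfr WT PSCs. The 5 acinar markers summed to 61.75 to 204.5 TPM with Egfr KO PSCs and 92.7 to 236 TPM with Egfr WT PSCs. The 12 fibroblast and stellate cell markers summed to 116 to 408 TPM with Egfr KO PSCs and 130 to 322 TPM with Egfr WT PSCs, and the 7 endothelial markers to 7.05 to 30.1 TPM with Egfr KO PSCs and 12.2 to 19.95 TPM with Egfr WT PSCs. The defining Schwann cell marker Sox10, of interest because Schwann cells make Dhh, had 2 counts in Egfr KO PSC replicate 2 and 2 in Egfr WT PSC replicate 5, and none in the other libraries.

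The receptor side of the pathway was present in these libraries at moderate levels, and the ligands were at low levels. Of the response genes, Gli1 and Hhip were near 0 while Ptch1 was not. Which cells in the sorted mixture made each transcript was not tested. Averaged over the 10 libraries, Smo was at 4.55 ± 1.55 TPM and Ptch1 at 4.51 ± 0.989 TPM (SD, n = 10). For scale, the median tested gene averaged 6.73 TPM. Ihh followed at 0.862 ± 0.501 TPM, Gli3 at 0.677 ± 0.264 TPM, Shh at 0.371 ± 0.304 TPM and Dhh at 0.358 ± 0.0828 TPM (SD, n = 10 each). Gli2 averaged 0.0558 TPM, Gli1 0.0510 TPM and Hhip 0.00626 TPM. Smo and Ptch1 could not be placed in an order, since Smo was the higher in 4 libraries and Ptch1 in 6. All 10 Ptch1 values lay above all 10 Ihh values. Ihh was above Gli3 in 7 libraries, Gli3 above Shh in 8, and Shh above Dhh in only 3, so none of these neighbours was separated in every library.

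**Figure D1:**
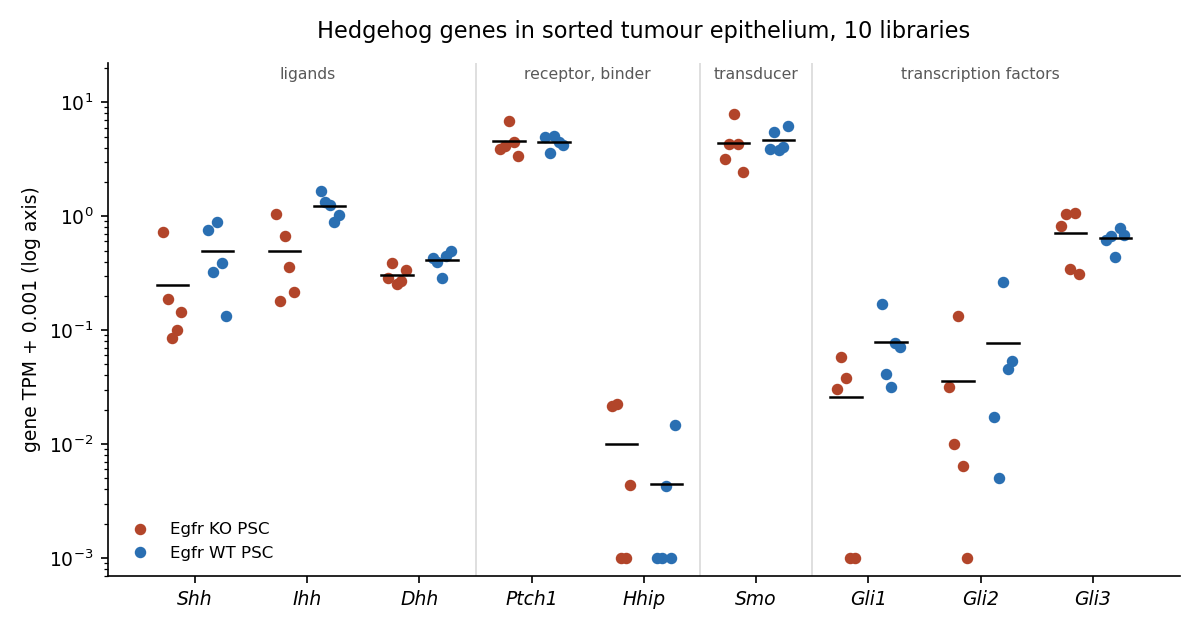
Gene TPM plus 0.001 on a log axis for the 9 Hedgehog genes; each point is a library and each bar the mean of 5, with Egfr KO PSC left of Egfr WT PSC, and points at the bottom are values of 0. Ptch1 and Smo lie between 2.46 and 7.82 TPM in every library, whereas no Gli1 or Hhip value passes 0.169 TPM.

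Ihh, which encodes Indian hedgehog, was the ligand gene of highest mean level. Its values with Egfr KO PSCs were 1.05, 0.179, 0.674, 0.354 and 0.216 TPM in replicates 1 to 5, against 1.67, 1.33, 1.26, 0.880 and 1.02 TPM with Egfr WT PSCs. On the TPM scale 4 of the 5 Egfr KO PSC libraries lay below every Egfr WT PSC library, and Egfr KO PSC replicate 1 lay among them. The values rest on 12 to 73 counts per library with Egfr KO PSCs and 47 to 95 counts with Egfr WT PSCs. Ihh averaged 0.658 ± 0.498 CPM with Egfr KO PSCs and 1.57 ± 0.370 CPM with Egfr WT PSCs (SD, n = 5 each). The log2 fold change was -1.25 (SE 0.45, 95% confidence interval -2.24 to -0.26), with an unadjusted edgeR p of 0.0177 and an adjusted p of 0.507 over all genes tested, so the difference was not called. Whether each library had a mouse of its own is not stated in the labels, so p-values here reflect only library-to-library spread, which may be technical.

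Of the 12 fibroblast markers, 9 were lower and 3 higher with Egfr KO PSCs, with none called by edgeR, 1 (Col1a1) by DESeq2 and 3 at an unadjusted edgeR p under 0.05. Over all genes tested, 0.742% were called by DESeq2 and 8.15% had an unadjusted edgeR p under 0.05. The fibroblast score, the mean log2 CPM of the 12 markers, was 2.68 ± 0.399 with Egfr KO PSCs and 3.24 ± 0.426 with Egfr WT PSCs (SD, n = 5 each). The collagen gene Col1a1 was at 96.6 ± 27.2 CPM with Egfr KO PSCs and 199 ± 55.2 CPM with Egfr WT PSCs (log2 fold change -1.04, edgeR adjusted p = 0.321). Col3a1, the collagen gene that gave most of the summed marker TPM in Egfr KO PSC replicate 1 (322 of 408 TPM), was at 477 ± 350 CPM with Egfr KO PSCs and 412 ± 195 CPM with Egfr WT PSCs (log2 fold change 0.21, edgeR adjusted p = 0.926), against the direction of the list. Of 8 macrophage markers, 5 were lower and 3 higher with Egfr KO PSCs (median log2 fold change -1.19), with 5 at an unadjusted edgeR p under 0.05 and none called. All 7 endothelial markers were lower with Egfr KO PSCs (median log2 fold change -0.28), with 0 at an unadjusted edgeR p under 0.05. Of 4 pericyte and smooth muscle markers, 3 were lower and 1 higher (median log2 fold change -0.58). Of these 4, 1 had an unadjusted edgeR p under 0.05. No marker of these 2 lists was called by edgeR. When the fibroblast score was added to the model the log2 fold change of Ihh was -0.93 (edgeR adjusted p = 0.643). In sorted bulk cells, fewer cells of a type and less RNA per cell cannot be told apart.

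Shh, which encodes Sonic hedgehog, was at 0.722, 0.188, 0.0841, 0.0989 and 0.144 TPM in Egfr KO PSC replicates 1 to 5, against 0.751, 0.324, 0.884, 0.387 and 0.132 TPM in Egfr WT PSC replicates 1 to 5. Egfr KO PSC replicate 1 reached the level of the higher Egfr WT PSC libraries, and Egfr WT PSC replicate 5 sat among the low Egfr KO PSC libraries, so the groups overlapped. Counts ran between 6 and 64 with Egfr KO PSCs and between 10 and 72 with Egfr WT PSCs. The log2 fold change was -0.93 (95% confidence interval -2.31 to 0.45, edgeR adjusted p = 0.727). Without Egfr KO PSC replicate 1 it was -1.89 (edgeR adjusted p = 0.278). Over all 10 libraries Shh varied 10.3-fold in CPM. Its coefficient of variation was 79.8%, against a median of 40.5% among the 1989 tested genes whose mean CPM was within 1.5 times its own.

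Dhh, which encodes Desert hedgehog, was the steadiest ligand gene. It was at 0.288, 0.385, 0.253, 0.271 and 0.337 TPM with Egfr KO PSCs and at 0.426, 0.397, 0.288, 0.444 and 0.494 TPM with Egfr WT PSCs. The groups overlapped, and the log2 fold change was -0.27 (95% confidence interval -0.80 to 0.26, edgeR adjusted p = 0.801). Its coefficient of variation was 21.8%, against a median of 37.5% among the 1813 genes of like mean CPM. The 3 ligands summed to 1.05 ± 0.578 TPM with Egfr KO PSCs and 2.14 ± 0.504 TPM with Egfr WT PSCs (SD, n = 5 each). The range was 0.697 to 2.06 TPM with Egfr KO PSCs and 1.64 to 2.84 TPM with Egfr WT PSCs. The groups thus overlapped, and the sum was not tested. Ihh held the largest part of that sum in 3 Egfr KO PSC libraries and in all 5 Egfr WT PSC libraries, and Dhh in Egfr KO PSC replicates 2 and 5. Shh was the highest ligand in none of the 10.

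Ptch1, the receptor gene and itself a target of the pathway, showed no detectable difference between the stellate cell genotypes. It was at 3.90, 4.16, 6.87, 4.496 and 3.37 TPM with Egfr KO PSCs, against 4.97, 3.61, 5.08, 4.48 and 4.21 TPM with Egfr WT PSCs. Egfr KO PSC replicate 3 was the highest of the 10 libraries, and the other 9 were between 3.37 and 5.08 TPM. Ptch1 averaged 20.7 ± 4.17 CPM with Egfr KO PSCs and 20.5 ± 1.37 CPM with Egfr WT PSCs (SD, n = 5 each; log2 fold change 0.02, edgeR adjusted p = 0.983). The sign of so small a difference changed between fits, to -0.10 without Egfr KO PSC replicate 3. The 95% confidence interval of the log2 fold change was -0.29 to 0.32, the narrowest of the 6 tested members.

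The Ptch1 counts came mainly from a single transcript. Of the 10 annotated Ptch1 transcripts, the protein-coding transcript Ptch1-202 held 80.8 ± 4.17% of the estimated count with Egfr KO PSCs and 77.2 ± 4.57% with Egfr WT PSCs (SD, n = 5 each). The other long protein-coding form, Ptch1-201, held 13.1 ± 4.49% with Egfr KO PSCs and 15.98 ± 5.08% with Egfr WT PSCs. The difference in the Ptch1-201 share was smaller than the spread between libraries (-2.88 percentage points, two-sided exact permutation p = 0.373, n = 5 each). The transcripts overlap over most of their length, so the split rests on how reads common to several transcripts were assigned. On GRCm38 the annotated start of Ptch1-202 lies 1200 bases downstream of that of Ptch1-201.

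**Figure D2:**
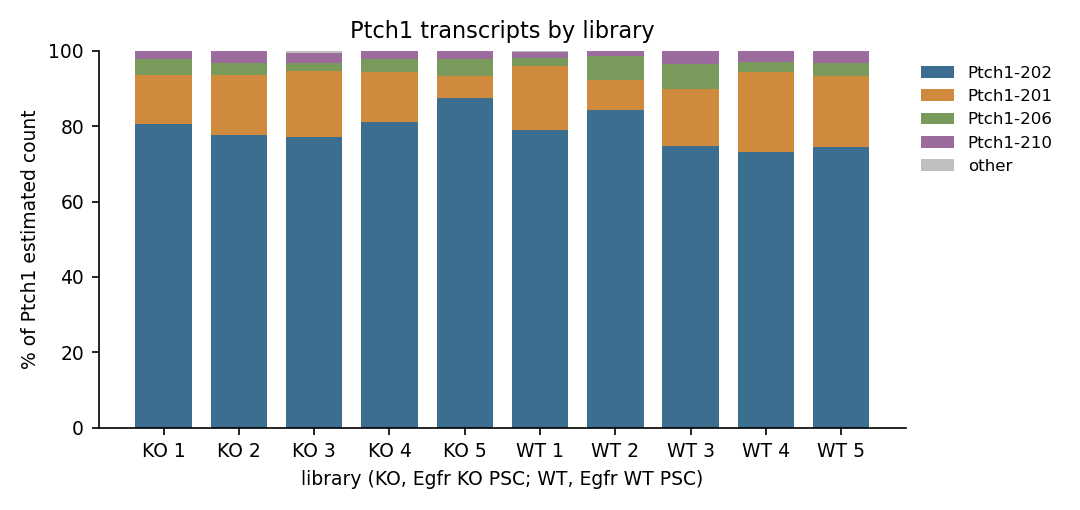
Share of the Ptch1 estimated count held by each transcript, in percent, as stacked bars for 5 Egfr KO PSC and 5 Egfr WT PSC libraries. Ptch1-202 holds between 73.2% and 87.6% in every library and Ptch1-201 between 5.81% and 21.0%.

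RefSeq promoter sequence was at hand for 7 members (Ihh, Dhh, Ptch1, Hhip, Smo, Gli2 and Gli3). The 250 bases before the RefSeq start are shown for Ihh, the leading ligand, for Ptch1, the abundant target gene, and for Hhip, the target gene nearest to 0, so that the promoters of genes at very different levels can be read side by side. They are from build GRCm38.p6, each on the minus strand and printed 5′ to 3′ along the gene, from chr1:74951673-74951922 (Ihh), chr13:63565736-63565985 (Ptch1) and chr8:80058009-80058258 (Hhip). Capitals mark GC boxes, the letters GGGCGG on either strand.
Ihh: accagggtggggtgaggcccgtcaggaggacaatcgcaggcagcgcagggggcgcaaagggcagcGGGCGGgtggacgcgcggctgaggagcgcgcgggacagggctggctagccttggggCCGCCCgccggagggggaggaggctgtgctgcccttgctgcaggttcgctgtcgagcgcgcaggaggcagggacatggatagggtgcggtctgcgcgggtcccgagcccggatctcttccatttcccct
Ptch1: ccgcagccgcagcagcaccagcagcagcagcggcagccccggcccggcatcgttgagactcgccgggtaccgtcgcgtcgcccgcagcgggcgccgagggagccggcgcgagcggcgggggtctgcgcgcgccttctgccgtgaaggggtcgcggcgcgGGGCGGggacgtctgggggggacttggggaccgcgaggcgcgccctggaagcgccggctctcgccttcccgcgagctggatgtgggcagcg
Hhip: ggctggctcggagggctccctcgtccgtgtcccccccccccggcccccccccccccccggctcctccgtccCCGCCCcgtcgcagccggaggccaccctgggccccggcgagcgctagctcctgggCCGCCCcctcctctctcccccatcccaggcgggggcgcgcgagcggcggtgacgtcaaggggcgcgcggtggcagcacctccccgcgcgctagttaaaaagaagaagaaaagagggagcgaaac
The RefSeq start of Ptch1 is the annotated start of Ptch1-201, the transcript with the smaller share of the 2 long forms. The GLI consensus GACCACCCA, searched on both strands with no mismatch, was in 0 of the 7 windows and in 0.225% of all 32851 promoter windows of that length. The GC box, a motif added after the sequences were seen, was in 6 of the 7 windows (all but Smo) and in 32.7% of all windows. The Ptch1 and Hhip windows both hold it, at 1 and 2 places. Their gene means were 4.51 TPM for Ptch1 and 0.00626 TPM for Hhip. However, the window of Ptch1 lies before the start of Ptch1-201, which was at 0.18 to 0.95 TPM per library. Most of the Ptch1 level came from a transcript that starts elsewhere. Whether the GC box bears on these levels was not tested. The Ptch1 window held 41 CpG dinucleotides, that of Hhip 28 and that of Ihh 24.

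Smo, which encodes the transducer Smoothened, was at 3.19, 4.33, 7.82, 4.28 and 2.46 TPM with Egfr KO PSCs and at 3.92, 5.51, 3.83, 4.06 and 6.13 TPM with Egfr WT PSCs. Both the highest and the lowest library were in the Egfr KO PSC group. The log2 fold change was -0.09 (95% confidence interval -0.70 to 0.51, edgeR adjusted p = 0.953). The sign of this difference was not stable: adding the fibroblast score to the model gave 0.20, and leaving out 1 of 4 libraries (Egfr KO PSC replicate 1 or 5, Egfr WT PSC replicate 2 or 5) also made it positive.

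Gli3, which encodes the GLI factor that mainly acts as a repressor without ligand, was the most abundant GLI gene. It was at 0.812, 1.05, 0.345, 1.07 and 0.308 TPM with Egfr KO PSCs, against 0.612, 0.668, 0.441, 0.780 and 0.682 TPM with Egfr WT PSCs. The Egfr KO PSC libraries lay on both sides of the others, with replicates 1, 2 and 4 above all Egfr WT PSC libraries and replicates 3 and 5 below them. The log2 fold change was 0.21 (95% confidence interval -0.57 to 0.99, edgeR adjusted p = 0.901).

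None of the 6 tested members was called by edgeR, where 0.0% of all 17495 genes were called. DESeq2 called 0.742% of all genes and limma voom 0.0171%, and neither called a member. A single member, Ihh, had an unadjusted edgeR p under 0.05, where 8.15% of all genes had one. In no member were the 2 groups free of overlap in CPM, against 1.52% of all genes. The median log2 fold change was -0.18 over the 6 members tested and 0.00041 over all genes tested, with 4 members lower and 2 higher with Egfr KO PSCs.

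**Figure D3:**
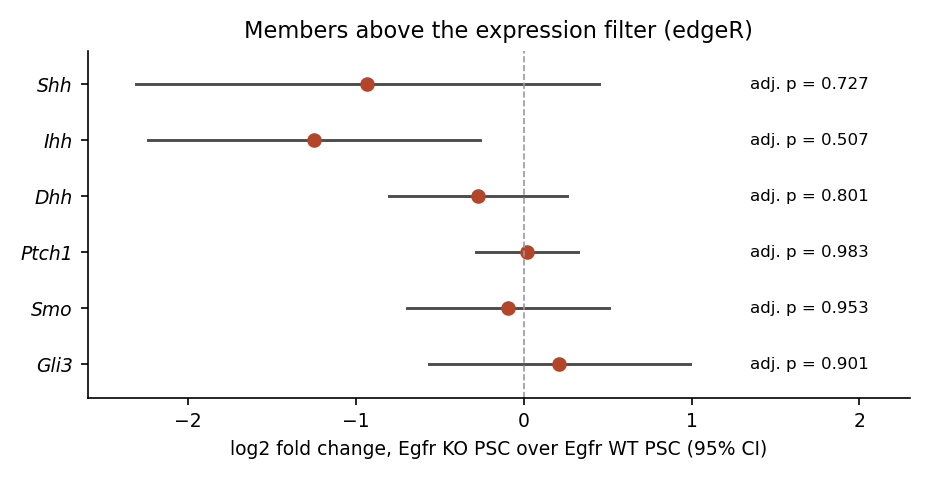
Log2 fold change, Egfr KO PSC relative to Egfr WT PSC, with its 95% confidence interval for the 6 members above the expression filter, with the edgeR adjusted p at the right. The interval of Ihh, -2.24 to -0.26, is the only one that leaves out 0, and its adjusted p is 0.507.

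Gli1, the most direct transcriptional readout of Hedgehog signalling, was close to the limit of detection in every library. Its estimated counts were 4, 3, 4, 0 and 0 in Egfr KO PSC replicates 1 to 5, and 7.3, 6, 3.8, 8 and 8 in Egfr WT PSC replicates 1 to 5. At these depths a count of 0 allows up to 3 counts, a level of 0.0558 to 0.0760 CPM depending on the library. This level was taken on the plain library size, without the TMM scaling that the other CPM values carry. Summed over a group, Gli1 had 11 counts with Egfr KO PSCs (exact Poisson 95% interval 5.49 to 19.7, counting error only) and 33 counts with Egfr WT PSCs (22.7 to 46.3). Egfr KO PSC replicate 3 overlapped with Egfr WT PSC replicate 3, and the other 4 Egfr KO PSC libraries lay below every Egfr WT PSC library in CPM. That order rests on rounded counts, since before rounding Egfr KO PSC replicate 1 (4) was above Egfr WT PSC replicate 3 (3.8). In TPM, Egfr KO PSC replicates 2 and 3 (0.0576 and 0.0368) were above Egfr WT PSC replicate 3 (0.0305). In the edgeR fit without a filter on low counts, where 0.00283% of 35286 genes were called, the log2 fold change of Gli1 was -1.58 (unadjusted p = 0.0407, adjusted p = 0.675).

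Gli2, which encodes the main activator of the GLI family, had estimated counts of 7, 2, 24, 1 and 0 with Egfr KO PSCs, against 3, 1, 4, 8 and 10 with Egfr WT PSCs. Summed over a group, Gli2 had 34 counts with Egfr KO PSCs (exact Poisson 95% interval 23.55 to 47.5, counting error only) and 26 with Egfr WT PSCs (17.0 to 38.1). Egfr KO PSC replicate 3 alone held 24 of the 34 counts of its group. In TPM, Gli2 was highest in Egfr WT PSC replicate 3 (0.266 TPM), where a few reads on the 367-base transcript Gli2-202 gave nearly the whole value, so the counts are the better guide here. The log2 fold change without a filter was 0.36 (edgeR adjusted p = 0.931). Egfr KO PSC replicate 3 also had the highest endothelial score of the 10 libraries, 2.17 (mean log2 CPM), against 0.252 to 1.84 in the other 9, and its pericyte score of 3.07 was the highest of its group. Their part in the Gli2 count was not tested.

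Hhip, a target gene whose product binds and sequesters Hedgehog ligands, had estimated counts of 7, 7, 0, 0 and 1 with Egfr KO PSCs and 0, 0, 1, 0 and 4 with Egfr WT PSCs. Summed over a group, Hhip had 15 counts with Egfr KO PSCs (exact Poisson 95% interval 8.4 to 24.7, counting error only) and 5 with Egfr WT PSCs (1.62 to 11.7). At most 3 counts were seen in 3 Egfr KO PSC and 4 Egfr WT PSC libraries. No difference was called at this depth (log2 fold change without a filter 1.38, edgeR adjusted p = 0.675).

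The other genes of the pathway were examined in lists by role. Among 6 genes of ligand processing and release, 4 were tested and none was called (1 higher, 3 lower, median log2 fold change -0.28). Disp1, which encodes the transporter that releases the ligand from the producing cell, was at 5.73 ± 0.894 TPM with Egfr KO PSCs and 7.47 ± 2.94 TPM with Egfr WT PSCs (edgeR adjusted p = 0.677). Hhat, the acyltransferase gene needed for active ligand, was at 1.47 ± 0.532 TPM with Egfr KO PSCs and 1.32 ± 0.297 TPM with Egfr WT PSCs. The release factor genes Scube1 and Scube2 lay below the filter, and Scube3 averaged 0.0723 ± 0.0558 TPM with Egfr KO PSCs and 0.119 ± 0.0962 TPM with Egfr WT PSCs.

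Among 8 genes of ligand reception, 7 were tested and none was called (3 higher, 4 lower, median log2 fold change -0.07). The mean log2 CPM of all 8 ran between -0.996 and -0.0198 with Egfr KO PSCs and between 0.0279 and 0.902 with Egfr WT PSCs, with no overlap. Over the 7 tested genes alone, without Lrp2, it ran between -0.49 and 0.606 with Egfr KO PSCs and between 0.262 and 0.979 with Egfr WT PSCs, and the groups overlapped. The co-receptor gene Boc had the lowest p, at 0.198 ± 0.0453 TPM with Egfr KO PSCs and 0.3505 ± 0.164 TPM with Egfr WT PSCs (log2 fold change -0.81, edgeR adjusted p = 0.604). The co-receptor gene Gas1 was at 0.936 ± 0.865 TPM with Egfr KO PSCs and 0.717 ± 0.331 TPM with Egfr WT PSCs. The glypican gene Gpc3, whose product competes with Patched-1 for ligand, was at 0.409 ± 0.236 and Gpc4 at 3.09 ± 0.872 TPM with Egfr KO PSCs, against 0.820 ± 0.352 and 3.97 ± 1.34 TPM with Egfr WT PSCs. Each of these 4 had an adjusted p of 0.604 or more.

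Among 12 transducers and regulators, 11 were tested and none was called (5 higher, 6 lower, median log2 fold change -0.15). Spop, an adaptor of the ubiquitin ligase that degrades GLI proteins, was the most abundant, at 154 ± 5.01 TPM with Egfr KO PSCs and 136 ± 15.8 TPM with Egfr WT PSCs (log2 fold change 0.16, edgeR adjusted p = 0.652). The kinase gene Csnk1a1 was at 48.6 ± 7.09 TPM with Egfr KO PSCs and 56.9 ± 8.14 TPM with Egfr WT PSCs. Evc, a ciliary partner of Smoothened, was at 0.185 ± 0.192 TPM with Egfr KO PSCs and 0.341 ± 0.139 TPM with Egfr WT PSCs, and Kif7 lay below the filter.

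All 12 genes of the primary cilium, the organelle in which Smoothened acts, were tested and none was called (4 higher, 8 lower, median log2 fold change -0.08). The motor gene Kif3a was at 31.6 ± 3.13 TPM with Egfr KO PSCs and 31.4 ± 1.64 TPM with Egfr WT PSCs. The transport genes Ift172 and Ift80 were at 23.5 ± 4.89 and 5.62 ± 2.08 TPM with Egfr KO PSCs, against 25.9 ± 3.31 and 7.34 ± 1.53 TPM with Egfr WT PSCs. Tulp3, an adaptor that carries receptors into the cilium, was at 9.86 ± 2.17 TPM with Egfr KO PSCs and 8.06 ± 0.638 TPM with Egfr WT PSCs.

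Of 12 known GLI targets outside the members, 10 were tested and none was called (3 higher, 7 lower, median log2 fold change -0.26). The mean log2 CPM of all 12 ran between 2.29 and 2.65 with Egfr KO PSCs and between 2.73 and 3.12 with Egfr WT PSCs, with no overlap. Over the 10 tested genes it ran between 3.405 and 3.91 with Egfr KO PSCs and between 3.90 and 4.23 with Egfr WT PSCs, which overlapped narrowly. These scores are a description and were not tested. Mycn, a growth regulator, had the lowest p, at 3.15 ± 1.80 TPM with Egfr KO PSCs and 7.94 ± 4.80 TPM with Egfr WT PSCs (log2 fold change -1.29, edgeR adjusted p = 0.515). The survival gene Bcl2 was at 6.63 ± 1.43 TPM with Egfr KO PSCs and 8.62 ± 1.61 TPM with Egfr WT PSCs (edgeR adjusted p = 0.620). The cyclin genes Ccnd1 (503 ± 103 TPM) and Ccnd2 (324 ± 73.2 TPM) were far more abundant than any Hedgehog member with Egfr KO PSCs, and likewise with Egfr WT PSCs (419 ± 59.2 and 357 ± 81.1 TPM). Cyclin genes have many other inputs, so their level is no readout of this pathway alone.

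Members were also set against the fibroblast score and against an epithelial score (the mean log2 CPM of 8 markers) over the 10 libraries, which gave 18 relations. None passed after Benjamini-Hochberg adjustment. Gli1 had the closest relation with the fibroblast score (Pearson r = 0.792, adjusted permutation p = 0.0788; Spearman rho = 0.851, adjusted permutation p = 0.0518, n = 10). Without the 2 libraries farthest from the median score, r for Gli1 was 0.864. Within the 5 Egfr KO PSC libraries r was 0.624 and within the 5 Egfr WT PSC libraries 0.81, groups too small for a test. On log2(TPM + 0.1) it was 0.535, and Gli1 had at most 8 counts in a library. Ihh had r = 0.709 and rho = 0.588 (adjusted permutation p = 0.147 and 0.479), and r = 0.678 without the 2 farthest libraries. The relation did not hold within both groups, with r = 0.905 for Ihh among Egfr KO PSC libraries and r = -0.426 among Egfr WT PSC libraries. Ptch1 and Gli3 had r = 0.0522 and r = -0.00084 with the fibroblast score (adjusted permutation p = 0.998 each). Within groups the values had opposite signs, for Ptch1 0.369 among Egfr KO PSC and -0.705 among Egfr WT PSC libraries, and for Gli3 -0.342 among Egfr KO PSC and 0.836 among Egfr WT PSC libraries.

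**Figure D4:**
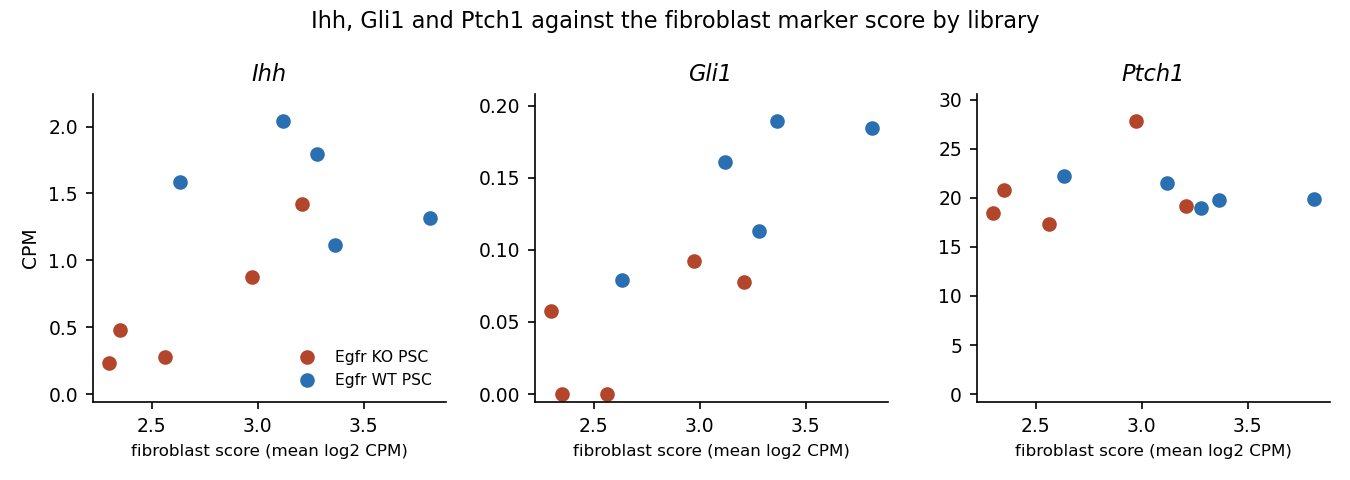
CPM of Ihh, Gli1 and Ptch1 against the fibroblast marker score (mean log2 CPM) in 5 Egfr KO PSC and 5 Egfr WT PSC libraries, 1 point a library. The 2 libraries without Gli1 counts have scores of 2.35 and 2.56, and Ptch1 stays between 17.4 and 27.9 CPM over the whole range of the score.

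With the epithelial score the strongest relation was that of Smo (r = -0.779, adjusted permutation p = 0.0788; rho = -0.612, adjusted permutation p = 0.479, n = 10). It rested on Egfr KO PSC replicates 3 and 5, the libraries with the lowest and the highest score, and r was -0.43 without them. Within groups r was -0.954 among Egfr KO PSC and -0.159 among Egfr WT PSC libraries. Ptch1 showed the same dependence, with r = -0.658 (rho = -0.527, adjusted permutation p = 0.201 and 0.519) and r = -0.0790 without these libraries, and with r = -0.793 among Egfr KO PSC and -0.0018 among Egfr WT PSC libraries. The file names carry a number, 8, 9 or 10, whose meaning the labels do not explain, and each number holds 3 or 4 libraries, too few for a value of its own.

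By pattern over the 10 libraries (Pearson r of log2 CPM), the 3 genes most like Ihh among 10009 genes of at least 5 CPM were Capn7 (r = 0.948), a calpain protease gene, Ube2d2a (r = 0.945), a ubiquitin-conjugating enzyme gene, and the phospholipase gene Pla2g16 (r = 0.940). The 3 most like Ptch1 were Zbtb2 (r = 0.941), Dtymk (r = 0.939) and Hpf1 (r = 0.922), which encode a zinc finger protein, thymidylate kinase and a partner of PARP1. As the highest among all genes searched, these values are a description and were not tested.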

How the data were processed

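RNA was sequenced from 10 libraries, 5 per group, grouped by the PSC line label; the labels pair none. Per the labels' protocols, a low-input kit was used with PCR cycles set by RNA input, with no molecular identifiers. The authors deposited estimated counts, TPM and effective lengths per transcript (the last in bases, used in 1 alternative), made per the submitters' processing notes with Salmon 1.9.0 and GRCm39; no annotation release is named there. Of 147828 transcripts, 137063 (92.72%) matched a GENCODE M21 gene, with 98.07% to 98.69% of counts. Only names and promoters were taken from GRCm38.

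Counts were summed per gene, rounded and tested with edgeR 4.0.16 (R 4.3.3; TMM, quasi-likelihood F test, minimum count 10, Benjamini-Hochberg over 17495 genes, threshold 0.05), after a check on simulated counts. Alternatives used DESeq2 1.42.0, limma 3.58.1, another scaling, no filter, length offsets, log2(TPM + 0.1) and log2(TPM + 1), covariates and leaving out each library. Scores used log2 CPM with a prior count of 2; correlations had 100000 permutations. No 2 libraries agreed within sampling noise (lowest chi-square per degree of freedom 39.2). Intervals and floors cover counting error only.

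The members and lists were chosen with earlier results of these data known. The text names all 9 members and, per pathway list, genes past the threshold or else the 2 of lowest p and the 2 of highest mean TPM. The marker lists examined were epithelial, fibroblast and stellate cell, macrophage, endothelial, pericyte and smooth muscle, Schwann cell, islet, acinar and leukocyte. Median log2 fold changes were -1.19 for macrophage, -0.28 for endothelial, -0.58 for pericyte and smooth muscle and -0.33 for Schwann cell markers. They were 0.45 for islet and 0.00034 for acinar markers. The leukocyte list held 1 gene, Ptprc, with a log2 fold change of -1.38 (edgeR adjusted p = 0.44).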

Additional observations from a re-analysis of the deposited data

Results flagged for a closer look

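In 3 of 18 groups of 5 values, a single library stood apart from the other 4 by Dixon's test. Chance flags about 1 group in 20 where values are normally distributed. Groups near 0 counts, such as those of Gli2 and Hhip, are not, so 3 of 18 cannot be set against that rate. Shh was at 1.25 CPM in Egfr KO PSC replicate 1, against 0.139 to 0.309 CPM in the other Egfr KO PSC libraries. Gli2 was at 0.555 CPM in Egfr KO PSC replicate 3, against 0 to 0.136 CPM in the others of its group. Hhip was at 0.0923 CPM (4 counts) in Egfr WT PSC replicate 5, against 0 to 0.0198 CPM in the others of its group.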

How the results depend on the processing

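No member was called under any of 9 alternatives or without any of the 10 libraries. Over all genes, where edgeR called 0 (1426 at an unadjusted p under 0.05), DESeq2 called 127 genes, limma voom 3, edgeR without a filter 1, and limma on TPM 1 with a pseudocount of 0.1 and 2 with a pseudocount of 1. Leaving out 1 library gave 0 to 4 calls, with 4 without Egfr KO PSC replicate 1, 1 without Egfr KO PSC replicate 3 and 2 without Egfr WT PSC replicate 5. Ihh, Shh, Dhh and Gli3 kept their direction in all 19 fits each, and Ihh ran between -1.74 and -1.03 when a library was left out and between -1.56 and -0.60 under the alternatives (lowest adjusted p 0.20). Shh ran between -1.89 and -0.64 without a library. The log2 fold change of Ptch1 turned to -0.0576 with limma voom, to -0.0041 with limma on log2(TPM + 0.1), and lay between -0.10 and 0.0806 when a library was left out. That of Smo turned to 0.20 with the fibroblast score in the model and lay between -0.37 and 0.0530 when a library was left out. The correlation of Hhip with the fibroblast score turned to -0.0011 with a prior count of 0.5, and that of Dhh with the epithelial score to -0.10 on log2(TPM + 0.1). The cause of these reversals was not tested. The list scores over genes above the filter only were chosen after seeing the data and kept the sign of the group difference in all 5 pathway lists. No paired analysis was possible because the labels pair no libraries across the groups. Members under 100 counts in a library, and Gli1, Gli2 and Hhip most of all, are limited by depth.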

Other observations

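Lrp2 and Foxf1, 2 genes of the pathway lists that lay below the expression filter, were chosen after their values were seen and did not pass the test. Lrp2 encodes megalin, an endocytic receptor that can bind Sonic hedgehog. It had 0, 0, 2, 0 and 0 counts in Egfr KO PSC replicates 1 to 5, against 10, 66, 40, 20 and 0 counts in Egfr WT PSC replicates 1 to 5. The groups overlapped because of Egfr WT PSC replicate 5, and the edgeR fit without a filter on low counts gave an unadjusted p of 0.000105 and an adjusted p of 0.164. Foxf1, a mesenchymal target gene of the pathway, had 20 counts in all with Egfr KO PSCs and 53 with Egfr WT PSCs (edgeR without a filter, log2 fold change -1.37, adjusted p = 0.639).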
